A study of Mus musculus with 27 samples.

Results

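The cytosolic ribosomal protein genes were followed in neutrophils and macrophages sorted from mouse mammary tumours. They were taken by symbol, as Rpl or Rps with a number and at most an a, x, l or l1 behind it, together with Rplp0, Rplp1, Rplp2 and Rpsa, and without the Rps6k kinases and the pseudogenes. This gave 79 of the 9996 genes listed, 48 of the large and 31 of the small ribosomal subunit, 3 of them paralogues of another member (Rpl7l1, Rpl22l1 and Rps27l). Of the listed ribosomal symbols 12 fall outside the rule, 7 of them pseudogenes, and Rps3a1 and Rpl36al are among the others. The rule used symbols only and no measured value.

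The mice carried K14cre with floxed Cdh1 and Trp53, so that Cre driven by the keratin 14 promoter deletes E-cadherin and p53 in epithelial cells and mammary tumours arise de novo. All 8 groups share this genotype, and the labels give no age. RNA was measured in 27 libraries from bulk sorted cells: neutrophils and macrophages of mice given a control antibody (4 and 4 libraries), an anti-CSF-1R antibody (4 and 2), cisplatin with the control antibody (3 and 4), or cisplatin with anti-CSF-1R, here called the combination (4 and 2). CSF-1R is the receptor through which macrophages receive survival signals, and cisplatin is a DNA-crosslinking chemotherapy. Tumours treated with cisplatin were taken 1 day after injection number 2, and those without it at a size of 100 mm2, so cisplatin and the time of sampling cannot be told apart. Macrophages from mice given anti-CSF-1R are those that a host treated against this receptor still had. In bulk RNA, fewer cells of a type and less RNA per cell cannot be told apart.

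Ribosomal proteins wrap the ribosomal RNAs of both subunits, and nearly every one of them is made from a single expressed gene in equal numbers to the others. Their mRNAs begin with a run of pyrimidines, the 5′ terminal oligopyrimidine tract, through which mTOR and Larp1 set their translation and stability together. Neutrophils are short-lived cells that stop dividing and cut down ribosome making as they mature in the bone marrow, whereas macrophages live longer and go on making ribosomes.

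The regions around the annotated start are printed for members that the results turn on. RefSeq promoters of the GRCm38.p6 build were found for 59 of the 79 members. Each line runs from 50 bases before the annotated start to 20 after it on the transcribed strand. The longest run of C and T in that stretch is in capitals, the first one where runs are equally long. They lie at chr2:180257329-180257398 (Rps21, + strand), chr2:39005112-39005181 (Rpl35, - strand), chr17:28328421-28328490 (Rpl10a, + strand), chr3:28805458-28805527 (Rpl22l1, + strand), chr4:152325676-152325745 (Rpl22, + strand), chr9:66946036-66946105 (Rps27l, + strand), chr3:90213629-90213698 (Rps27, - strand), chr17:46782637-46782706 (Rpl7l1, - strand) and chr7:3703991-3704060 (Rps9, + strand).
Rps21: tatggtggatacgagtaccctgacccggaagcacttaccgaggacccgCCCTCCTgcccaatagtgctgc
Rpl35: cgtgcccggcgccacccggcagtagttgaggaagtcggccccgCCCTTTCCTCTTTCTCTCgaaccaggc
Rpl10a: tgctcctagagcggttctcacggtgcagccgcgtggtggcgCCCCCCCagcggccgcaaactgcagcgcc
Rpl22l1: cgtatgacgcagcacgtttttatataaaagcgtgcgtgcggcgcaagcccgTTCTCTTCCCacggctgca
Rpl22: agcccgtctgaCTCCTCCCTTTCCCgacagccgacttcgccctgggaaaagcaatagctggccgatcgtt
Rps27l: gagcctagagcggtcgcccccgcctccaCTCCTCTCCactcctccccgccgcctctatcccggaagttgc
Rps27: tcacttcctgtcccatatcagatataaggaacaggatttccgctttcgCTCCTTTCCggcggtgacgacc
Rpl7l1: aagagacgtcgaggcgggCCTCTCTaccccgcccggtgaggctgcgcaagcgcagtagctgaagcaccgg
Rps9: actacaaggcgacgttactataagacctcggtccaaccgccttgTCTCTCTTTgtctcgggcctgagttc
The run in capitals covers the annotated start in Rps21, Rpl35, Rps27 and Rps9 and begins just after it in Rpl22l1. It lies wholly before the start in Rpl10a, Rpl22, Rps27l and Rpl7l1, where it is not a tract at the start of the transcript as annotated. It has only 7 bases in Rps21, Rpl10a and Rpl7l1. In Rps27l another run of 9 follows the marked one, and it also lies wholly before the start. A run of at least 8 pyrimidines anywhere between 50 bases before and 50 after the start was found in 50 of the 59 members (84.7%), against 37.7% of the 7653 listed genes with a promoter. The core of the ETS motif, CGGAAG on either strand anywhere from 250 bases before to 50 after the start, was found in 40 of the 59 (67.8%), against 36.8% of those genes. Both were present in 33 members (55.9%), against 12.1%. A match describes the letters only.

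Libraries held between 998706 and 3282970 decoded reads in neutrophils and between 1298404 and 7497124 in macrophages. Of 10 neutrophil markers the 9 listed ones summed to 21105 to 98121 in neutrophil libraries and to 191 to 1505 in macrophage libraries, and C1qa, a complement gene of tissue macrophages, was at 1158 ± 503 in the control macrophages (SD, n = 4) and at 91.3 ± 39.6 in the control neutrophils (SD, n = 4). The sum over 11 macrophage markers overlapped, at 12211 to 46716 in neutrophil and 19554 to 46074 in macrophage libraries. Of the 11, only Cd14 was higher in control neutrophils, at 14676.5 ± 3704.8 against 2089.9 ± 826.3 in control macrophages (SD, n = 4 each). Csf1r was at 1185.7 ± 130.4 in control neutrophils and 2195.4 ± 290.1 in control macrophages (SD, n = 4 each). Macrophage anti-CSF-1R library 2 stood apart by its 6 mast cell markers, which summed to 7957, against at most 107 in any of the other libraries. Neutrophil cisplatin library 2 and combination library 2 stood apart by the highest neutrophil marker sums, 88707 and 98121. They also had the highest macrophage marker sums among neutrophil libraries, 40082 and 46716. The counts and medians of members between treatments and between cell types are given below without these 2 libraries where they enter. The labels do not state that libraries of a group are from different mice, and p-values therefore measure only the spread between these libraries, which may be technical. All values are normalised read counts, that is, read counts divided by the library's size factor. Marker sums also hold values whose decimal place, partly lost in the deposited values, stayed uncertain and which were left out of the main fits.

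Ribosomal protein mRNAs took a larger part of the macrophage libraries than of the neutrophil libraries. In control neutrophils they took 0.776%, 0.522%, 0.656% and 0.624% of the reads of all listed genes, and in control macrophages 1.81%, 1.64%, 1.92% and 2.4%. With anti-CSF-1R the shares were 0.818%, 0.388%, 0.607% and 0.433% in neutrophils and 1.84% and 1.97% in macrophages. With cisplatin they were 0.604%, 0.324% and 0.372% in neutrophils and 1.87%, 1.41%, 1.69% and 1.99% in macrophages. With the combination they were 0.496%, 0.222%, 0.411% and 0.584% in neutrophils and 1.51% and 1.64% in macrophages. The highest neutrophil share lay below the lowest macrophage share in every arm, while the arms of 1 cell type overlapped, except that both combination macrophage libraries lay below both anti-CSF-1R ones. Counting error is small beside this spread: the 95% Wilson interval of the lowest share ran from 0.215% to 0.229%, and it covers counting error only.

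**Figure D1:**
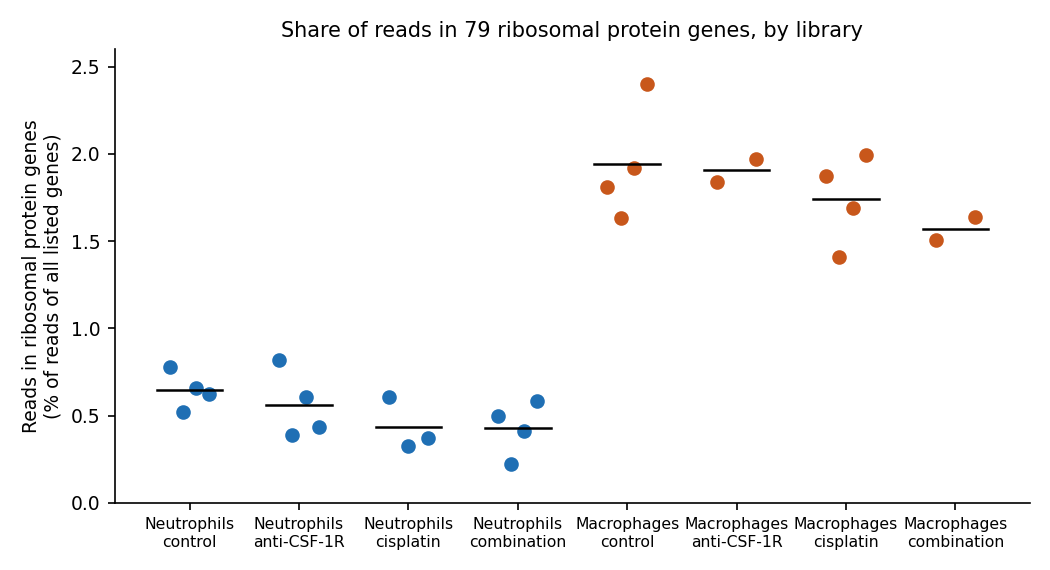
Reads in the 79 ribosomal protein genes as a percentage of the reads of all listed genes (vertical axis) in each library (points) of the 8 groups (horizontal axis), with a bar at the group mean. All 15 neutrophil libraries lie at or below 0.818% and all 12 macrophage libraries at or above 1.41%.

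In several libraries of a cell type most members lay on the same side of their own mean. In macrophage control library 4, 78 of its 78 kept members lay above their own mean over the macrophage libraries, with a median deviation of 0.45 on the log2 scale, and in macrophage cisplatin library 2 all 79 lay below it, by a median of -0.34. Among neutrophils, 73 of 76 lay above in anti-CSF-1R library 1 (median 0.60) and 69 of 76 below in combination library 2 (median -0.51). The first of these neutrophil libraries also had the highest sum of B cell markers, 408, and the other the highest sum of neutrophil markers. The part of those cells in the shares was not tested. Other libraries were split: in neutrophil control library 2 and in macrophage combination library 2, 32 of 78 members lay above and 46 below. The same count over all genes is not given here, so a shift of all genes in a library is not set apart. Because members rise and fall together with a library, counts of members are not counts of independent observations.

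Per kilobase of the shortest principal transcript, members differed widely in level. In control macrophages the median was 379 per kb, with Rpl41, which encodes a very short peptide of the large subunit, highest at 3065 ± 779 (SD, n = 4) per kb, followed by Rps29 at 1452 ± 491 per kb. The lowest were Rpl34 at 23.5 ± 5.4, Rpl30 at 28.8 ± 10.7 and Rpl7l1 at 30.2 ± 7.7 per kb. Across the 79 members the levels per kb in control macrophages and control neutrophils had a Spearman correlation of 0.94, as a description, since transcript length and read assignment are shared. For 60 members the GENCODE annotation holds at least 1 pseudogene named after the gene, and the treatment of reads matching several places was not given in the sources used here, so levels of single members are uncertain.

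In control tumours 73 of the 79 members were higher in macrophages and 0 were lower, at an adjusted p under 0.05 (limma on log2(value + 1), Benjamini-Hochberg over 9903 genes). Of all genes tested, 26.6% were called higher and 24.8% lower. The members' median difference was 1.16 on the log2 scale, or 2.24-fold, against 0.13 for all genes, and was alike for the large (1.16) and the small subunit (1.18). For 72 members every macrophage library lay above every neutrophil library, which held for 24.8% of all genes.

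**Figure D2:**
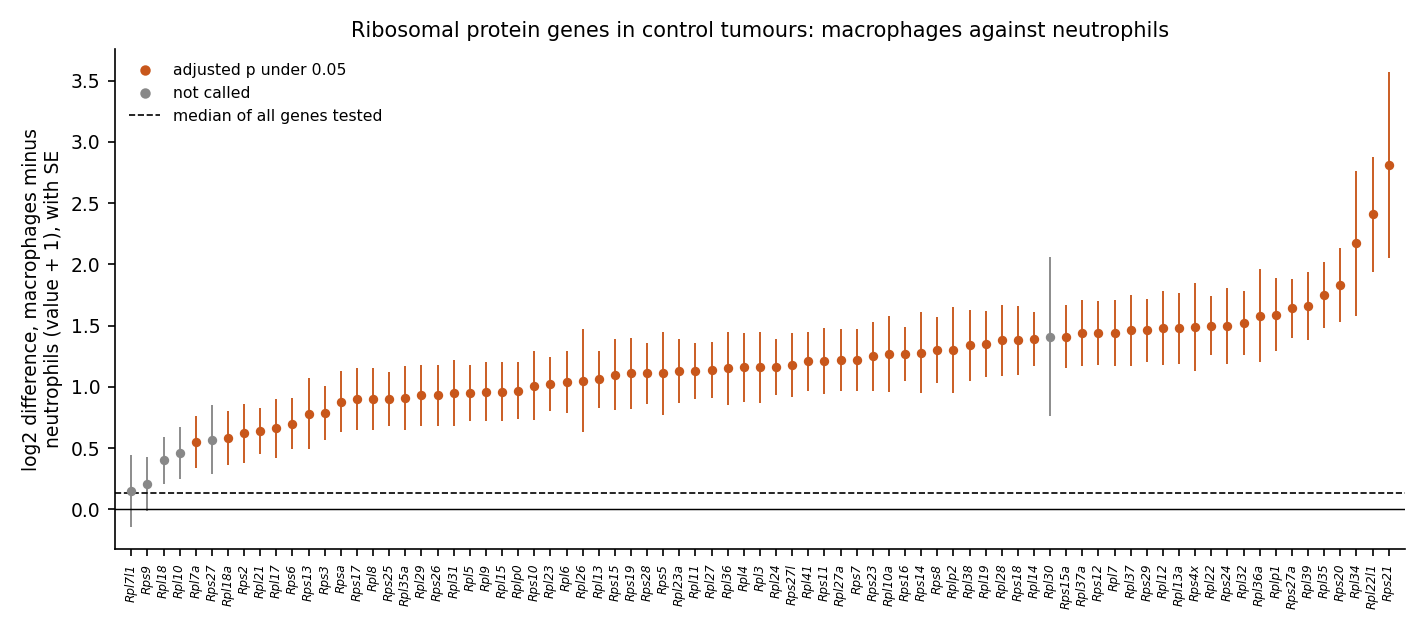
Difference between control macrophages and control neutrophils for the 79 members in order of size (log2 scale, value + 1, bars are standard errors), with called members in orange. All 79 lie above 0, and the 6 that were not called are Rpl7l1, Rps9, Rpl18, Rpl10, Rps27 and Rpl30.

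The members with the largest differences came from both subunits. Rps20, a protein of the head of the small subunit, was at 158.5, 75.4, 105.5 and 92.6 in control neutrophils and at 310.0, 275.0, 391.8 and 578.1 in control macrophages. The macrophage libraries all lay above, and the difference was 1.83 ± 0.30 (SE; adjusted p = 1.98e-05, limma), or 3.56-fold. Rps21, another small subunit protein, was at 13.3, 7.4 and 4.63 in the 3 control neutrophil libraries in which its value could be read, and at 62.7, 38.9, 78.5 and 70.3 in control macrophages. Its difference of 2.81 ± 0.76 (adjusted p = 0.00411, limma) became 2.10 (adjusted p = 0.145) when the lost decimal places were restored without knowledge of the groups. Rps27a, which encodes ubiquitin fused to a small subunit protein, was at 96.3, 62.1, 72.2 and 77.8 in neutrophils and 232.6, 196.3, 226.6 and 313.0 in macrophages, a difference of 1.64 ± 0.24 (adjusted p = 4.28e-06, limma). Rpl35 and Rpl39, large subunit proteins at the exit tunnel for the growing chain, were 3.35-fold and 3.15-fold higher in macrophages (adjusted p = 8.26e-06 and 2.93e-05, limma).

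The acidic stalk recruits the translation factors to the large subunit. Its base Rplp0 was at 355.5, 224.7, 277.5 and 269.4 in control neutrophils and at 444.2, 444.5, 583.3 and 759.4 in control macrophages. Its partners differed more: Rplp1 was at 77.0, 54.7, 83.3 and 73.1 against 187.7, 157.4, 221.0 and 334.8, and Rplp2 at 41.5, 39.9, 44.4 and 41.7 against 102.1, 71.4, 106.0 and 152.9. All macrophage libraries lay above all neutrophil libraries for the 3 genes. The log2 differences were 0.97 ± 0.23, 1.59 ± 0.30 and 1.30 ± 0.35 (SE; adjusted p = 0.00118, 1.07e-04 and 0.00363, limma), and the differences among the 3 genes were not tested.

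Rpl5 and Rpl11, which with 5S RNA form the particle that binds and inhibits Mdm2, were higher in control macrophages by 0.95 ± 0.23 and 1.13 ± 0.23 (SE; adjusted p = 0.00131 and 2.18e-04, limma), and Rpl23, a further Mdm2-binding member, by 1.02 ± 0.22 (adjusted p = 4.94e-04). Rps6, the target of the S6 kinases, was at 494.7, 369.5, 436.7 and 407.3 in neutrophils and 683.6, 580.0, 739.6 and 772.2 in macrophages, a difference of 0.70 ± 0.21 (adjusted p = 0.0063, limma). Rps3, Rpsa and Rps19, the gene most often mutated in Diamond-Blackfan anaemia, were 1.73-fold, 1.84-fold and 2.16-fold higher in macrophages, and Rpl3 and Rpl13a 2.24-fold and 2.78-fold, all called.

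Rps9 and Rpl7l1 were called in no arm, and their differences were the smallest on average over the 4 arms (0.28 and 0.38). Rps9, which binds the 18S RNA early in assembly, was at 460.6, 323.7, 499.6 and 378.6 in control neutrophils and at 403.9, 406.4, 489.6 and 628.8 in control macrophages. The groups overlapped, and the difference was 0.21 ± 0.22 (adjusted p = 0.438, limma). With anti-CSF-1R it was 0.59 (adjusted p = 0.0834), with cisplatin 0.32 (adjusted p = 0.254) and with the combination -0.01 (adjusted p = 0.983). Rpl10, which joins the large subunit last in the cytoplasm, was at 668.0, 538.1, 664.2 and 549.9 in control neutrophils and at 826.0, 697.6, 943.4 and 877.7 in control macrophages. These groups did not overlap, and the difference of 0.46 ± 0.21 had an adjusted p of 0.0709 (limma), which passed with 2 of 15 alternatives (0.0153 with scaling on the other genes).

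**Figure D3:**
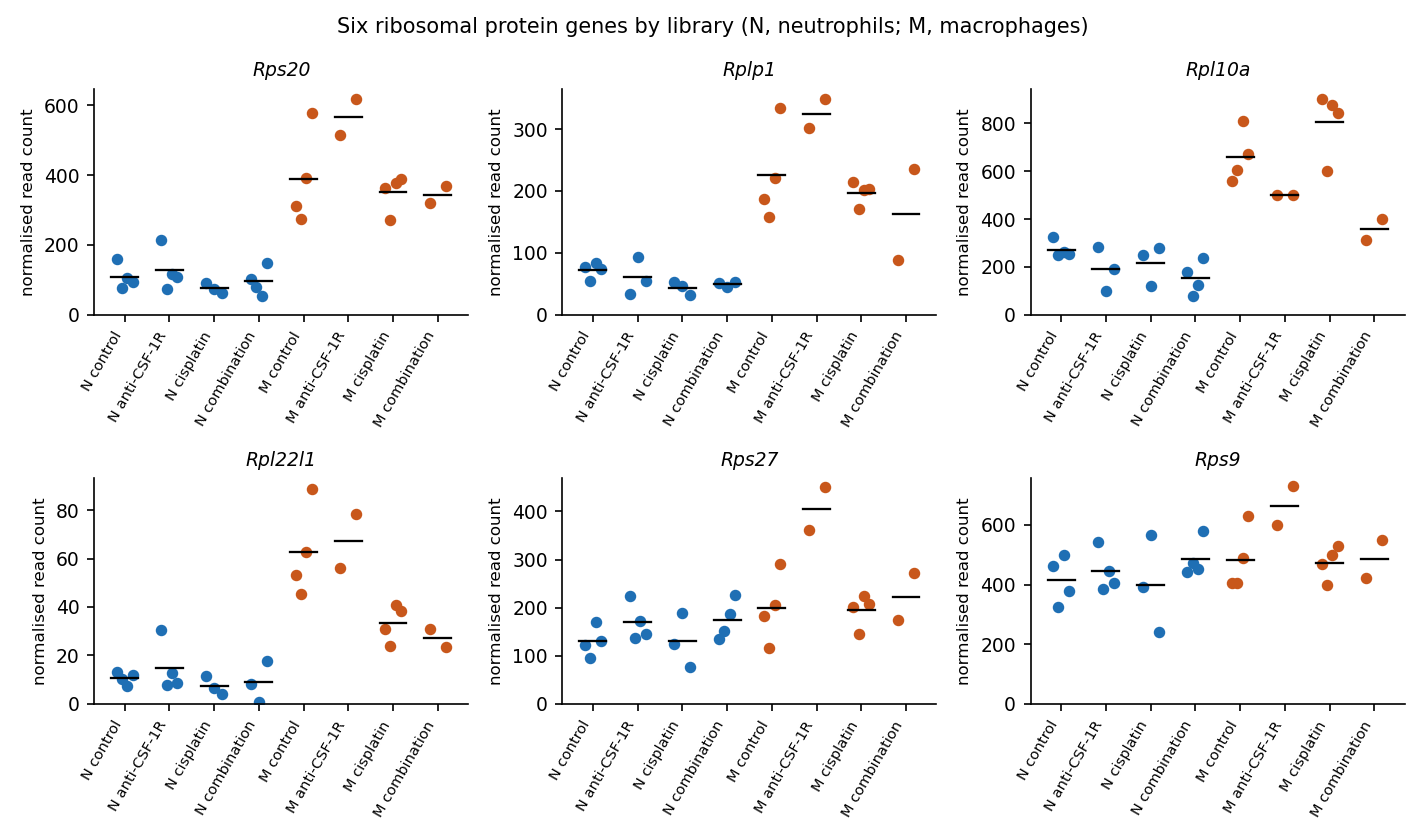
Normalised read counts of 6 members (vertical axes) in each library (points) of the 8 groups, with a bar at the group mean. Rps20, Rplp1 and Rpl10a separate the cell types in all arms, Rps9 overlaps except with anti-CSF-1R, and Rpl10a is lowest among macrophages in the combination, at 314.1 and 398.6.

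The cell type difference recurred in the treated arms. With anti-CSF-1R 70 of 78 members tested were called higher in macrophages (21.5% of all genes), with cisplatin 74 of 79 (29.3%) and with the combination 66 of 79 (22.8%), and 0 were called lower in each (background 21.6%, 27.7% and 24%). The members' medians were 1.43, 1.54 and 1.29, against 0.10, 0.13 and 0.12 for all genes. In all 4 arms together 61 of 78 members were called higher (78.2%), against 11.1% of the 9688 genes tested in each. Without neutrophil cisplatin library 2 and combination library 2, the calls were 76 with cisplatin and 63 with the combination. The combination rests on 2 macrophage libraries: without macrophage combination library 2, 42 members were called, while the median stayed between 1.13 and 1.52 over all 14 alternatives. Scaling each library on the genes outside the family moved the median of all genes by 0.15 to 0.25 towards macrophages, gave 77, 74, 77 and 71 members called higher in control, anti-CSF-1R, cisplatin and combination, and moved the share of higher calls among all calls in the combination from 48.7% to 59.6%.

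For several members the gap was larger in a treated arm than in control. Rplp1 differed by 2.53 ± 0.38 with anti-CSF-1R and 2.19 ± 0.32 with cisplatin (SE; adjusted p = 1.40e-05 and 4.42e-06, limma), against 1.59 in control. Rps24, a small subunit protein, was at 134.6, 83.0 and 79.9 in cisplatin neutrophils and at 527.3, 425.5, 557.9 and 568.0 in cisplatin macrophages, with a difference of 2.41 ± 0.34 (adjusted p = 1.84e-06, limma). Rps4x, the X-linked small subunit member, differed by 2.14 ± 0.39 with cisplatin and 2.17 ± 0.44 with the combination (adjusted p = 5.60e-05 and 3.00e-04, limma). In the test of the interaction itself, no member's treatment response was called different between the cell types. For cisplatin against control 0 of 79 were called (0.172% of all genes), with 5 at an unadjusted p under 0.05, all higher (3.58% of all genes were higher at that level), and a median of 0.37 in the direction of macrophages. This median was 0.37 without the libraries that stand apart, with 4 higher and 1 lower at that level, and 0.22 without neutrophil cisplatin library 3. For anti-CSF-1R 0 of 78 were called (0.326% of all genes), with 0 at an unadjusted p under 0.05 and a median of 0.24. For the combination 0 of 79 were called (0.0511% of all genes), with 0 at an unadjusted p under 0.05 and a median of 0.07, which turned to -0.03 without the libraries that stand apart.

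In neutrophils no member was called in any of the 5 comparisons between treatments by limma. With cisplatin, 77 of 78 members tested lay below control, with a median of -0.42 against 0.03 for all genes, and 8 had an unadjusted p under 0.05, all lower (4.13% of all genes were lower at that level). Of all genes 0.121% were called. For 12 members the 3 cisplatin libraries all lay below the 4 control libraries, which held for 6.1% of all genes. Rpl13, of the large subunit, was at 324.4, 224.7, 310.8 and 216.6 in control and at 183.9, 162.5 and 125.5 with cisplatin, a difference of -0.76 ± 0.27 (SE; adjusted p = 0.41, limma). Rpl27a, also of the large subunit, lay wholly below control as well, at 52.6 ± 18.6 (SD, n = 3) against 90.8 ± 9.58 (SD, n = 4), with a difference of -0.82 ± 0.30 (adjusted p = 0.436). Rps27l alone lay above control, by 0.16 ± 0.32 (adjusted p = 0.899). Without the cisplatin and combination libraries that stand apart, 74 of 78 members lay below control with a median of -0.41 and 5 at an unadjusted p under 0.05. Neutrophil cisplatin library 3 had 69 of 78 members below their own neutrophil mean, by a median of -0.58, and also the highest sum of 5 fibroblast markers, 822.8 against at most 354.2 in any of the other libraries. Without it the median against control was -0.29, and the part of those cells in the result was not tested.

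In neutrophils of the combination arm, which share their control libraries with the cisplatin comparison, 66 of 78 members lay below control with a median of -0.38, 12 had an unadjusted p under 0.05, all lower (6.89% of all genes were lower at that level), and 0 were called, against 1.42% of all genes. Rps2, of the small subunit, was at 287 ± 41.9 (SD, n = 4) in control and 188 ± 38.6 (SD, n = 4) with the combination, without overlap, a difference of -0.62 ± 0.25 (adjusted p = 0.227, limma). Rpsa, also known as the laminin receptor, was at 226.6, 158.2, 194.3 and 163.8 in control and at 120.5, 73.6, 91.5 and 158.6 with the combination. These groups overlapped by the combination library at 158.6, and the difference was -0.78 ± 0.29 (adjusted p = 0.188). Without the libraries that stand apart the median against control was -0.25 with 57 of 78 below and 2 at an unadjusted p under 0.05. Scaling on the genes outside the family moved the median of all genes by -0.11 and that of the members to -0.50, and the share of higher calls among all calls from 81.5% to 71.7%.

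With anti-CSF-1R alone 49 of 78 neutrophil members lay below control, with a median of -0.06 and 0 at an unadjusted p under 0.05. None was called, against 0.142% of all genes. The spread inside this group was wide, since library 1 had the highest and library 2 the lowest member share outside the cisplatin arms. The combination against anti-CSF-1R had a median of -0.28 with 69 of 78 below and 3 at an unadjusted p under 0.05, all lower (4.44% of all genes were lower at that level), and 0.0548% of all genes called. Without the libraries that stand apart this became a median of -0.15 with 66 of 78 below and 0 at that level. The combination against cisplatin had a median of 0.08, 1 member at an unadjusted p under 0.05 (Rpl24, 0.56 ± 0.24, higher; 5.49% of all genes were higher at that level) and 0.296% of all genes called. Without the libraries that stand apart this became a median of 0.20 with 4 members higher at that level. For the neutrophil combination against control, 40% of simulated 2-fold changes and 93% of 4-fold ones were called. The changed genes lay outside the family and each gene varied independently, whereas members move together, so these rates do not apply to the members.

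**Figure D4:**
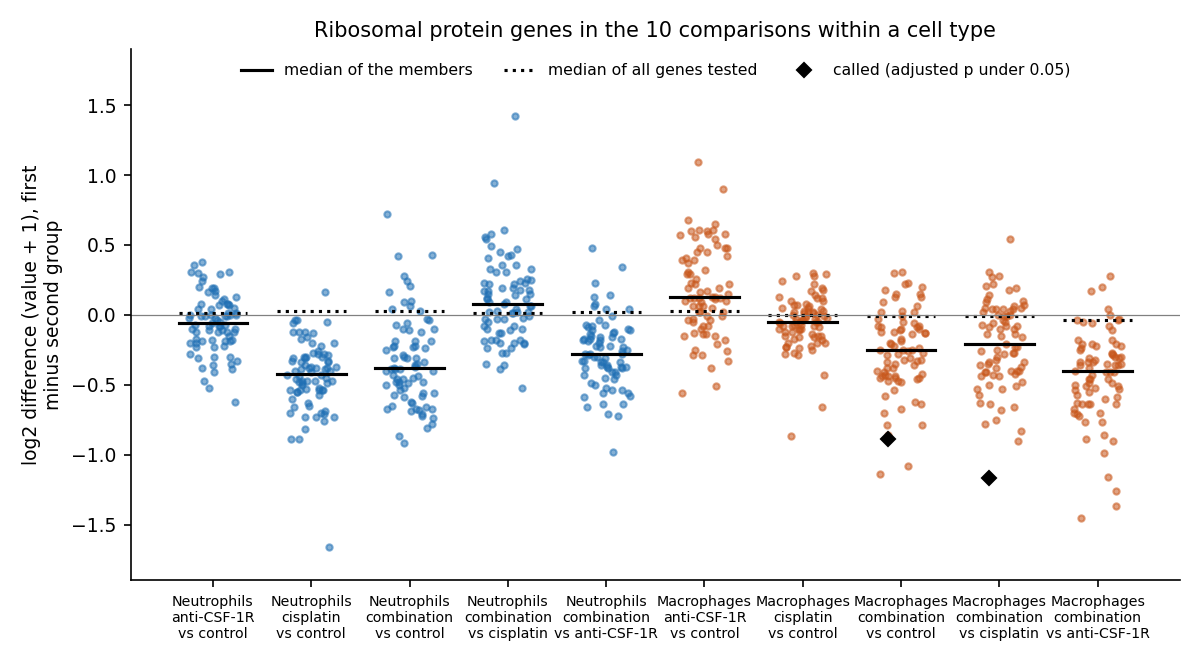
Differences of single members (points, log2 scale, value + 1) in the 5 neutrophil and 5 macrophage comparisons between treatments, with the median of the members (solid bar) and of all genes tested (dotted bar). The only called points, drawn as black diamonds, are Rpl10a in the macrophage combination, at -0.89 against control and -1.17 against cisplatin.

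In macrophages Rpl10a was the only member called between treatments. It encodes the large subunit protein at the base of the mobile stalk beside the exit site of the transfer RNA. The values of Rpl10a were 559.5, 603.5, 810.5 and 671.2 in control, 501.4 and 501.6 with anti-CSF-1R, 902.5, 599.2, 876.6 and 843.9 with cisplatin and 314.1 and 398.6 with the combination. Both combination libraries lay below all others. The combination was lower than cisplatin by -1.17 ± 0.23 (SE; adjusted p = 0.0137, limma), or 0.446-fold, and lower than control by -0.89 ± 0.23 (adjusted p = 0.04996), or 0.541-fold. In these comparisons 2.3% and 1.96% of all genes were called lower, and 4.18% and 3.57% in either direction. The call against control sits at the threshold: it was lost in 8 of 13 alternatives, with adjusted p from 0.0416 to 0.35, and the call against cisplatin was lost when either combination library was left out (adjusted p = 0.174 without library 1 and 0.0869 without library 2). In neutrophils Rpl10a was at 322.9, 248.3, 260.9 and 255.5 in control and 178.7, 77.5, 124.1 and 238.2 with the combination, again without overlap, at -0.92 ± 0.36 (adjusted p = 0.21). Its difference between the cell types was 1.27 in control, 1.51 with anti-CSF-1R, 1.95 with cisplatin and 1.31 with the combination, and was called in each.

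Around Rpl10a, most members lay lower in combination macrophages. Against control 64 of 79 were below, with a median of -0.25 and 11 at an unadjusted p under 0.05, all lower (9.59% of all genes were lower at that level). Against cisplatin 57 of 79 were below, with a median of -0.21 and 12 at that level, all lower (11% of all genes). Both combination libraries lay below every control library for 19 members (16.4% of all genes) and below every cisplatin library for 16 (19.5% of all genes). The last count is near the share of all genes, and the counts at an unadjusted p are not far above theirs. Macrophage combination library 1, in which 75 of 79 members lay below their own macrophage mean, had a sum of fibroblast markers of 319.7. It was at most 72.4 in any of the other macrophage libraries. Neutrophil markers summed to 1308.5 to 1447.3 in combination macrophages, 191.3 to 366.3 with cisplatin and 383.5 to 1505.3 in control. Such sums also hold values whose decimal place was uncertain. The place was certain for S100a9 in only 1 cisplatin and 1 control macrophage library, and for S100a8 in 2 and 1. The 3 listed of 5 eosinophil markers summed to 91.7 to 208.2, against 3.48 to 6.67 with cisplatin and 3 to 18.5 in control. With anti-CSF-1R alone they summed to 65.2 to 94.9. In the combination Ear1 and Ear2 had a certain decimal place in 1 library each, at 76.0 and 109.4. Siglecf was at 10.9 and 22.7, against up to 16.5 in control. Cx3cr1, a macrophage marker, was at 55.5 ± 36.3 (SD, n = 2), against 796 ± 75.9 with cisplatin and 702 ± 230 in control (SD, n = 4 each). The part of these marker differences in the result was not tested. Rps15, a small subunit protein of the decoding region, was at 412 ± 77.3 in control macrophages (SD, n = 4), at 426 ± 90.6 in cisplatin macrophages (SD, n = 4) and at 225 ± 26.5 (SD, n = 2) with the combination, a difference of -0.86 ± 0.25 from control and -0.90 ± 0.25 from cisplatin (adjusted p = 0.072 and 0.0545, limma). Rps21 was at 29.2 and 27.0 with the combination, below all of the 62.7, 38.9, 78.5 and 70.3 of control, at -1.08 ± 0.29 (adjusted p = 0.0576). Leaving out macrophage cisplatin library 2, which had the lowest member share of the macrophages, raised the number called in the combination against cisplatin from 1 to 5, among them Rps15, Rps19 and Rpl10.

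With anti-CSF-1R alone no macrophage member was called. Against control 54 of 78 members lay above, with a median of 0.13 against 0.03 for all genes, and 4.26% of all genes were called. At an unadjusted p under 0.05, 8 members were higher and 1 lower, against 11.2% and 10.7% of all genes, so the members did not exceed the background. Both anti-CSF-1R libraries lay above every control library for 8 members, fewer than the 16.3% seen over all genes. Rps27, a zinc-binding small subunit protein, was at 361.7 and 450.2 with anti-CSF-1R and at 182.7, 116.8, 206.6 and 291.3 in control. The groups did not overlap, and the difference of 1.09 ± 0.32 had an adjusted p of 0.0675 (limma). Without macrophage control library 4, the one with the highest member share, 3 members were called higher: Rps27 (adjusted p = 0.0188), Rplp2 (0.0425) and Rps29 (0.0374). Rpl3, a long member at the catalytic centre, lay lower at 230.4 and 287.1 against 315.0 to 449.7, by -0.56 ± 0.22 (adjusted p = 0.16). Members with a principal transcript under 700 bases had a median of 0.29 and longer ones 0.06, and the Spearman correlation of the difference with length was -0.40 over the 78 members and -0.14 over all genes with a length. In the combination against anti-CSF-1R this correlation was 0.46, both comparisons using the same 2 anti-CSF-1R libraries. Transcript length moves with these values, and mast cell markers were high in 1 of the 2 libraries. The part of either in the result was not tested. Rps27 was at 361.7 in the library with 58.1 of mast cell markers and at 450.2 in the library with 7957.

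Between the combination and anti-CSF-1R alone 73 of 78 members lay lower with the combination, with a median of -0.40 against -0.04 for all genes. Of these, 20 had an unadjusted p under 0.05, all lower (4.9% of all genes were lower at that level), and 0 were called, against 0.0444% of all genes. With 2 libraries against 2, groups fail to overlap often: 59 members lay wholly below, as did 25.1% of all genes. Rplp2 was at 54.3 and 104.5 with the combination and at 185.5 and 207.1 with anti-CSF-1R, by -1.37 ± 0.36 (adjusted p = 0.26, limma). Rpl38 was at 120 ± 30.9 (SD, n = 2) and 235 ± 11.3 (SD, n = 2), a difference of -0.99 ± 0.29 (adjusted p = 0.333).

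With cisplatin alone 49 of 79 macrophage members lay below control, the median was -0.05 against 0.00 for all genes, 1 member had an unadjusted p under 0.05, lower (4.67% of all genes were lower at that level), and 0 were called, against 0.521% of all genes. That member was Rpl22l1, at 53.1, 45.4, 62.7 and 88.7 in control and 31.0, 23.8, 40.7 and 38.3 with cisplatin. The groups did not overlap, and the difference was -0.87 ± 0.25 (SE; adjusted p = 0.204, limma). With the combination Rpl22l1 was at 31.1 and 23.5, a difference of -1.14 ± 0.31 from control (adjusted p = 0.0594). With anti-CSF-1R alone it was at 55.9 and 78.3, inside the control range.

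Rpl22l1 is the paralogue of Rpl22, whose protein binds the Rpl22l1 transcript and lowers its expression. In control macrophages Rpl22l1 reached 15.9%, 16.6%, 17.9% and 18.04% of the Rpl22 level per kb, and with cisplatin 9.3%, 9.34%, 12.7% and 10.3%. Every control library lay above every cisplatin library. The mean log2 ratio changed from -2.33 to -3.06 (exact permutation test on 4 against 4 libraries, two-sided p = 0.0286, the smallest this design allows; 0.107 after adjustment over 15 such tests). In control neutrophils the percentages were 9.43%, 10.9%, 5.05% and 9.97%, all below the control macrophages (exact permutation p = 0.0286, adjusted 0.107). Both genes were higher in macrophages, Rpl22 2.83-fold and Rpl22l1 5.33-fold (adjusted p = 1.64e-05 and 1.75e-04, limma).

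**Figure D5:**
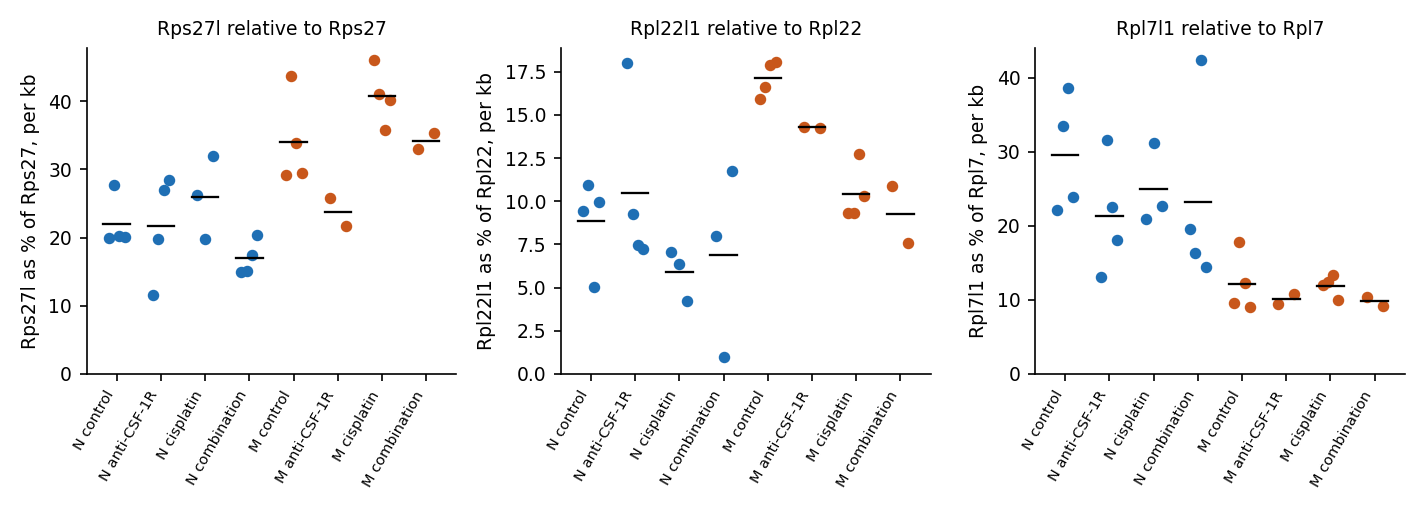
Level of a paralogue as a percentage of its partner, both per kb of transcript (vertical axes), in each library (points) of the neutrophil (N) and macrophage (M) groups, with a bar at the group mean. Rpl22l1 is at least 15.9% of Rpl22 in control macrophages and at most 12.7% with cisplatin, and Rpl7l1 is at most 17.8% of Rpl7 in macrophages.

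For the other paralogue pairs the ratios did not overlap between the control groups of the cell types, and neither passed after adjustment. That outcome was nearly fixed by the design, since 4 against 4 libraries allow no permutation p under 0.0286. At this p a test could pass only if most of the 15 tests reached it. Rps27l, a target of p53, was at 29.1%, 43.7%, 33.9% and 29.4% of Rps27 per kb in control macrophages and 19.99%, 27.7%, 20.3% and 20.1% in control neutrophils (exact permutation p = 0.0286, adjusted 0.107). Rps27l was called higher in macrophages (1.18 ± 0.26, adjusted p = 6.66e-04, limma), while Rps27 was not (0.57 ± 0.28, adjusted p = 0.086, overlapping groups). Rpl7l1, a nucleolar assembly factor related to Rpl7, was at 9.61%, 17.8%, 12.3% and 9.06% of Rpl7 in control macrophages and 22.2%, 33.5%, 38.7% and 23.9% in control neutrophils (exact permutation p = 0.0286, adjusted 0.107). Here Rpl7 was higher in macrophages by 1.44 ± 0.27 (adjusted p = 1.11e-04) and Rpl7l1 by 0.15 ± 0.29 (adjusted p = 0.685). After cisplatin Rps27l stood at 134.4, 86.2, 116.0 and 120.4 in macrophages, against 76.9, 73.8, 101.2 and 123.9 in control. These groups overlapped, with a difference of 0.29 ± 0.23 (adjusted p = 0.739), and the ratio to Rps27 did not pass either (exact permutation p = 0.171, adjusted 0.321).

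Other genes of ribosome making and translation were also called between the cell types, in a comparison in which 26.6% of all genes were called higher and 24.8% lower. In control tumours 14 of 34 ribosome biogenesis genes were called higher in macrophages and 0 lower, with a median of 0.65. Among them were Gnl3, a nucleolar GTPase (143.8 ± 32.3 against 61.8 ± 12.0, SD, n = 4 each; adjusted p = 6.69e-04, limma), and Utp20, of the small subunit processome (67.7 ± 23.4, n = 4, against 19.2 ± 12.0, n = 3; adjusted p = 2.94e-04). Of 18 other genes with a terminal oligopyrimidine tract 10 were called higher and 0 lower, with a median of 0.76: Eef1a1, the elongation factor that delivers transfer RNA, was at 4636 ± 716 against 2306 ± 384 (SD, n = 4 each; adjusted p = 1.63e-04, limma). Mitochondrial ribosomal proteins, which serve a separate ribosome, were called higher for 31 of 70 tested and lower for 3, with a median of 0.76, among them Mrpl13 (43.0 ± 6.44 against 8.97 ± 3.9; adjusted p = 1.32e-05). Gnb2l1, the scaffold protein on the head of the small subunit, was higher in macrophages by 1.32 ± 0.33 (SE; adjusted p = 0.00189, limma), whereas Fau, which encodes a ubiquitin-like protein fused to a small subunit protein, was at 261 ± 66.6 in macrophages and 233 ± 41.9 in neutrophils (0.15 ± 0.25, adjusted p = 0.627). Among 9 genes of translational stress and control 2 were called higher and 4 lower in macrophages, the former near the share of all genes. Larp1, the tract-binding protein, was higher (0.74 ± 0.20, adjusted p = 0.00281), and Ddit3 and Atf4, transcription factors of the integrated stress response, were lower by -2.46 ± 0.42 and -0.74 ± 0.21 (adjusted p = 4.22e-05 and 0.00434, limma).

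Between treatments a few biogenesis genes were called in macrophages. Nop58, a core protein of the box C/D particles that methylate ribosomal RNA, was at 83.2 ± 14.1 in control macrophages (SD, n = 4), at 31.7 ± 5.55 in anti-CSF-1R macrophages (SD, n = 2), at 59.97 ± 2.72 in cisplatin macrophages (SD, n = 4) and at 28.0 ± 4.38 in combination macrophages (SD, n = 2). It fell by 1.36 with anti-CSF-1R and by 1.53 with the combination on the log2 scale (adjusted p = 0.00634 and 0.00341, limma), and lay 1.08 lower in the combination than with cisplatin (adjusted p = 0.0217). Its partner Nop56 fell by 0.99 with anti-CSF-1R (adjusted p = 0.037), Gar1, of the pseudouridylating particles, by 1.39 with the combination (adjusted p = 0.018), and Ddx18, a nucleolar helicase, was 1.12 lower in the combination than with cisplatin (adjusted p = 0.0442). These make 2 of 33 or 34 tested biogenesis genes in each of the 3 comparisons, all lower. Of all genes tested, 214 of 9106, 178 of 9091 and 209 of 9091 were called lower, and 4.26%, 3.57% and 4.18% in either direction. A count of 2 is too small to set the list apart from all genes. The list's median was -0.39, -0.46 and -0.16. The ribosomal proteins themselves had medians of 0.13, -0.25 and -0.21 in the same comparisons. In neutrophils 0 of 32 biogenesis genes were called in each of the 5 comparisons, with medians from -0.60 (combination against control) to -0.26. Gnl3 was at 27.5 ± 9.01 in combination neutrophils (SD, n = 4) and 61.8 ± 12.0 in control neutrophils (SD, n = 4), a difference of -1.16 ± 0.29 (adjusted p = 0.0508, limma).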

How the data were processed

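The table the authors deposited gives a normalised signal: whole reads per gene over the size factor of the library. Partek 6.6, TopHat2 2.0.11, CASAVA 1.8, DESeq2, R 3.3.1 and the mm10 build are named in the submitters' processing notes, with their roles not given in the sources used here. Per the labels' protocols, 10 ng of RNA was amplified with the Ovation V2 and Encore Rapid kits. The labels number no replicates, so library numbers follow accession order. No column lacked a sample.

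Many values under 1000 had lost their decimal point. Undamaged values of a library are multiples of a fixed step, the worth of 1 read, to within 0.024 reads, so the place was restored by requiring whole reads, and, where several places were possible, by a negative binomial model over the 8 groups. Of the 2133 member values 729 had several places, and the 28 with a probability under 0.95 were left out (14 genes, among them Rps21 in 6 libraries and Rpl5 in both anti-CSF-1R macrophage libraries). The lowest listed value is 1, so fits near it depend on the pseudocount. On simulated libraries 0.0477% of the kept member values were wrong, against 25.4% as printed. The simulated counts were themselves negative binomial, as the decoding assumes, so this rate does not measure the errors in the deposited values.

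Values were tested with limma 3.58.1 (R 4.3.3; lmFit, eBayes with trend) on log2(value + 1), for genes at 10 or more in at least 2 fitted libraries, with Benjamini-Hochberg adjustment over all genes tested and a threshold of 0.05. Comparisons within a cell type were fitted on that cell type's libraries and the others on all 27. On simulated data, 29 of 162 calls for the neutrophil combination against control were false, and 15 of 121 for macrophages, where 26% of 2-fold and 80% of 4-fold changes were recovered. Both are a larger part of false calls than the threshold of 0.05 aims at, so single calls between treatments are less certain than their adjusted p. Only genes outside the family were changed, and no joint shift of genes within a library was simulated. Single ratios used exact permutation tests (scipy 1.17.1). Lengths are of the shortest principal transcript in GENCODE M21. Named members are up to 10 each way with the largest called change and groups that do not overlap, where fewer than 5 passed also the 5 of smallest p, the paralogue pairs and members with known roles, and up to 4 genes per pathway list. Members and lists were chosen with earlier results of these data known. Alternatives were the pseudocount, the filter, scaling on other genes, decoding without groups, the most probable place for every value, limma-voom on decoded reads, fitting only the groups compared and leaving out each library. Leaving out the neutrophil libraries cisplatin 2 and combination 2 together was added after seeing the data.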

Additional observations from a re-analysis of the deposited data

Results flagged for a closer look

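Groups of 4 libraries were searched for a library far from the other 3, for the member share and 33 member genes, in 160 groups, of which chance flags about 1 in 20. There were 6 such values. Macrophage cisplatin library 2 was low for Rpl39 (249.6, others 392.5 to 416.5), Rpl23 (313.2, others 388.9 to 402.5) and Rpl41 (888.5, others 1146 to 1174). Neutrophil control library 3 was high for Rpl7l1 (49.96, others 29.56 to 32.58). Neutrophil control library 1 was high for Rpl10a (322.9, others 248.3 to 260.9). Neutrophil combination library 4 was high for Rpl23 (208, others 133 to 145.4).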

How the results depend on the processing

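No paired analysis was possible because the labels number no replicates. Of 262 recomputed counts of members called, 245 stayed within 1.5 times the count reported, and all 262 medians of the members moved by less than the spread of the libraries. In macrophages the 1 call in the combination against control became 0 without the filter, 0 when decoded without the groups and 0 when only the groups compared were fitted, and ran from 0 to 2 when 1 library was left out (2 without control library 4, 0 without control library 1 or 3 or either combination library). The 1 call in the combination against cisplatin became 2 with limma-voom and ran from 0 to 5 when 1 library was left out (5 without cisplatin library 2, 0 without either combination library). With the most probable place for every value, anti-CSF-1R against control gave 1 call instead of 0, the combination against anti-CSF-1R 2, and the difference between the cell types for anti-CSF-1R 1. When 1 library was left out, anti-CSF-1R against control ran from 0 to 3 (3 without control library 4), and macrophages against neutrophils from 68 to 74 (control), 51 to 73 (anti-CSF-1R), 72 to 76 (cisplatin) and 42 to 69 (combination, 42 without macrophage combination library 2). For Rpl3, the difference between the cell types in the response to the combination turned from 0.59 to -0.06 when decoded without the groups. The cause of these moves was not tested. A group of 2 left with 1 library is assumed to vary like the others. Leaving out the 10 most abundant other genes from the denominator raised the shares to 0.279% to 1.01% in neutrophils and 1.69% to 2.84% in macrophages. Rps21 rests on few reads: without neutrophil anti-CSF-1R library 2 its cell type difference was 0.57 (adjusted p = 0.6252) instead of 2.94.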
